A study of Homo sapiens with 24 samples.

Results

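The data described here are the genome-wide response of 22Rv1 cells to the synthetic androgen R1881 while METTL3 was depleted, taken from 6 of the 24 RNA-seq libraries of the series by their labels alone. 22Rv1 is a human prostate carcinoma cell line that is castrate-resistant and enzalutamide-resistant. All 6 were transfected with an siRNA pool that targets METTL3 (siMETTL3) and, 48 h later, transfected again, in phenol-red-free medium with charcoal-stripped serum, from which steroids have been removed. R1881 at 1 nM was then present for 72 h in 3 of them (R1881), and ethanol alone in the other 3 (vehicle). For comparison there were 6 libraries of 22Rv1 with a non-targeting siRNA pool (siSCR), 3 with R1881 and 3 with vehicle, and 6 siMETTL3 libraries of LNCaP:C4-2, a castrate-resistant derivative of the LNCaP prostate cancer line, treated in the same way. The knockdown was transient and partial. Nothing states that the numbered libraries of a group were separate cultures, so all p-values measure the spread between these libraries, which may be technical.

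Androgen acts on transcription through DNA sites called androgen response elements, which are inverted repeats, and raises some genes and lowers others. Prostate secretory genes such as *KLK3* and the chaperone gene *FKBP5* are among its best known targets. METTL3 is the catalytic subunit of the complex that writes N6-methyladenosine (m6A) on mRNA, and FTO and ALKBH5 remove the mark. R1881 can also bind the progesterone and glucocorticoid receptors.

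METTL3 was lower in every siMETTL3 library of 22Rv1. With vehicle the siMETTL3 libraries held 26.9, 26.1 and 27.3 CPM (counts scaled to library size by TMM factors) and the siSCR libraries 50.3, 48.9 and 49.7 CPM. With R1881 they held 22.7, 26.1 and 22.4 CPM against 55.0, 51.9 and 54.8 CPM. The log2 fold change of siMETTL3 over siSCR was -0.89 ± 0.08 (SE) with vehicle and -1.18 ± 0.08 with R1881 (edgeR adjusted p = 1.48e-06 and 1.29e-08). An exact two-sided permutation test gave p = 0.1 in both cases, the smallest that 3 against 3 libraries allow. R1881 itself left *METTL3* without a call in these cells, at -0.17 ± 0.09 (SE) on the log2 scale (adjusted p = 0.12). The exact permutation test gave p = 0.1 for this comparison as well.

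The 6 libraries held 15716224 to 21306019 counts in genes. Along the first principal component, with 62.3% of the variance, R1881 and vehicle separated. The library of vehicle replicate 1 stood apart on the second component and had the largest mitochondrial share, 7.45% of counts against 5.27% and 5.04% in the other vehicle libraries and 3.93% to 4.24% with R1881. Of 18 luminal prostate markers 17 were tested, and *KRT8*, a luminal keratin, had 339, 391 and 395 CPM with vehicle. Of the 7 endothelial markers 1 was tested, at 5.86 to 8.78 CPM with vehicle and 6.72 to 7.61 CPM with R1881. Of the 11 leukocyte markers 2 were tested, with sums of 1.18 to 1.82 CPM and 0.452 to 1.35 CPM. Markers with too few counts to be tested are left out of all these sums. *PECAM1* and *CD3E* had 0 counts in all 6 libraries, *KRT14* likewise, and *PTPRC* at most 3 and *KRT5* at most 2; a count of 0 allows up to 0.141 to 0.191 CPM, depending on the library. Of the 12 fibroblast and smooth muscle markers 5 were tested. These summed to 45.5 to 50.8 CPM with vehicle and 30.9 to 34.3 CPM with R1881, and *COL1A1* was lower among them. Of the 8 basal markers 3 were tested, with sums of 124 to 139 CPM and 107 to 119 CPM. The part of other cell types in the results was not tested.

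R1881 changed 2406 of the 17865 genes tested, 13.5%, at the threshold of the study, an adjusted p below 0.05 and a change of 1.5-fold or more (differentially expressed genes, DEGs). Of these, 746 were higher (4.18% of the tested genes) and 1660 were lower (9.29%). Down-regulation was more frequent, and the median log2 fold change was -1.03 for the lower and 0.91 for the higher DEGs. Past 2-fold were 873 of the 1660 lower and 319 of the 746 higher DEGs. The most extreme changes were shared out more evenly, 37 higher and 49 lower DEGs passing 8-fold. Per length of transcript, the higher DEGs were as abundant as other genes, with a median of 14.6 TPM (a measure scaled by gene length) over the 6 libraries against 13.8 TPM for all tested genes, and the lower DEGs were scarcer, with 3.62 TPM. Protein-coding genes made up 625 of the higher and 1392 of the lower DEGs, and long noncoding RNAs 75 and 171. Without a fold threshold 5917 genes passed, 3000 higher and 2917 lower, so the surplus of lower DEGs appeared with the fold threshold. Counting by separation alone, 23.9% of the tested genes had all R1881 libraries above all vehicle libraries and 22.5% had all of them below.

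**Figure D1:**
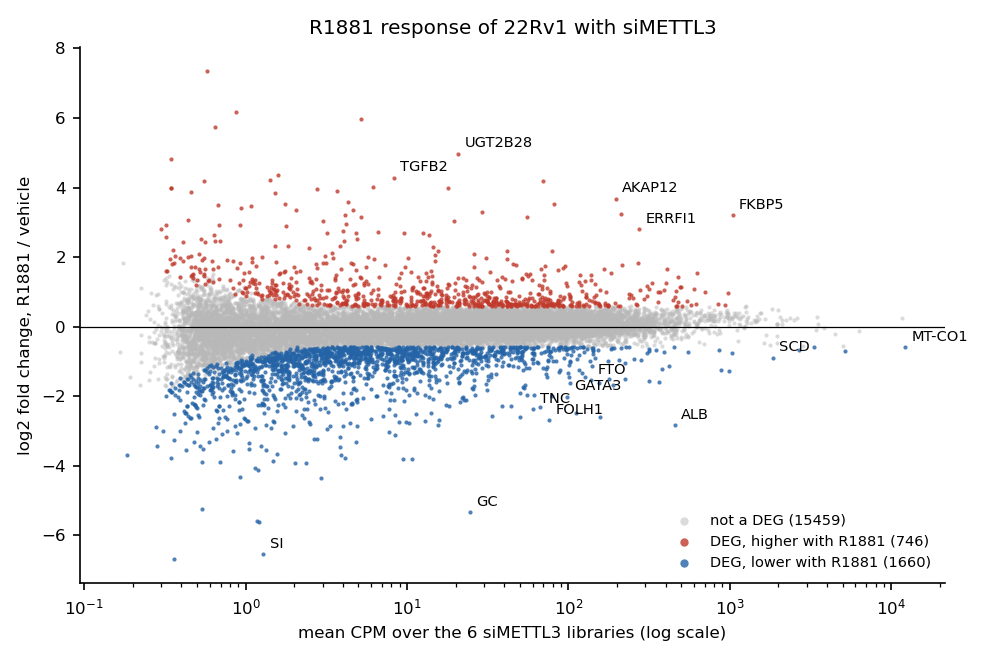
Log2 fold change of R1881 over vehicle in 22Rv1 with siMETTL3 (y axis) against the mean CPM over the 6 libraries (x axis, log scale), 1 point per tested gene; red points are the 746 higher DEGs, blue points the 1660 lower DEGs and grey points the genes that are not DEGs. FKBP5 and ERRFI1 are far up among abundant genes, while ALB, FOLH1, GATA3 and FTO lie below 0.

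Among genes known to be induced by androgen, enzymes, regulators and a co-chaperone rose, while none of the kallikreins *KLK2*, *KLK3* and *KLK4* was called higher. Of 34 such genes 31 were tested, 12 were higher and 2 lower, with a median log2 fold change of 0.36 (0.003 for all tested genes), beside 4.18% of all tested genes that were higher and 9.29% that were lower. The same background applies to the DEGs of the other lists. For list counts by adjusted p alone the background is 3000 higher and 2917 lower of the 17865 tested genes. *FKBP5* (ENSG00000096060, chr6:35573585-35728583), which encodes an immunophilin that binds HSP90 in steroid receptor complexes, had 206, 197 and 205 CPM with vehicle and 1896, 1929 and 1809 CPM with R1881. Among DEGs without overlap that averaged 1 CPM or more, it gained the most CPM. The change was 9.26-fold (log2 3.21 ± 0.07, adjusted p = 4.28e-19). *AKAP12* (ENSG00000131016, chr6:151239999-151358557), a scaffold for protein kinase A, went from 28.6, 29.9 and 26.9 to 400.4, 368 and 329 CPM, 12.8-fold. In neither gene did the groups overlap.

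*GNMT*, a glycine methyltransferase that consumes S-adenosylmethionine, rose from 3.35, 4.0 and 4.03 to 24.6, 22.9 and 23.4 CPM. *ZBTB16*, a zinc finger repressor, rose from 7.96, 11.8 and 9.72 to 44.4, 42.5 and 38.8 CPM, and *STEAP4*, a metalloreductase, from 1.42, 1.59 and 0.773 to 4.72, 6.14 and 5.86 CPM. These 3 changes were 6.19-fold, 4.24-fold and 4.35-fold. Smaller rises were measured for *PMEPA1* (log2 1.52 ± 0.08), an inhibitor of TGF-beta signalling, for the prostein gene *SLC45A3* (1.45 ± 0.11) and for the acyl-CoA synthetase gene *ACSL3* (1.16 ± 0.08). *KLK4*, a kallikrein, was lower, at 206, 238 and 231 CPM with vehicle and 149.8, 149 and 134 CPM with R1881 (log2 -0.64 ± 0.10), as was the noncoding RNA *PART1* (-0.83 ± 0.13). *KLK3* and *TMPRSS2* passed no test, at -0.05 ± 0.15 and -0.17 ± 0.16 with adjusted p of 0.82 and 0.48, with means of 8.98 and 10.9 CPM with vehicle; their signs turned when single libraries were left out. For *KLK2*, 0.25 ± 0.10 was measured (adjusted p = 0.057), and 0.16 to 0.34 in the fits that each lacked a library.

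**Figure D2:**
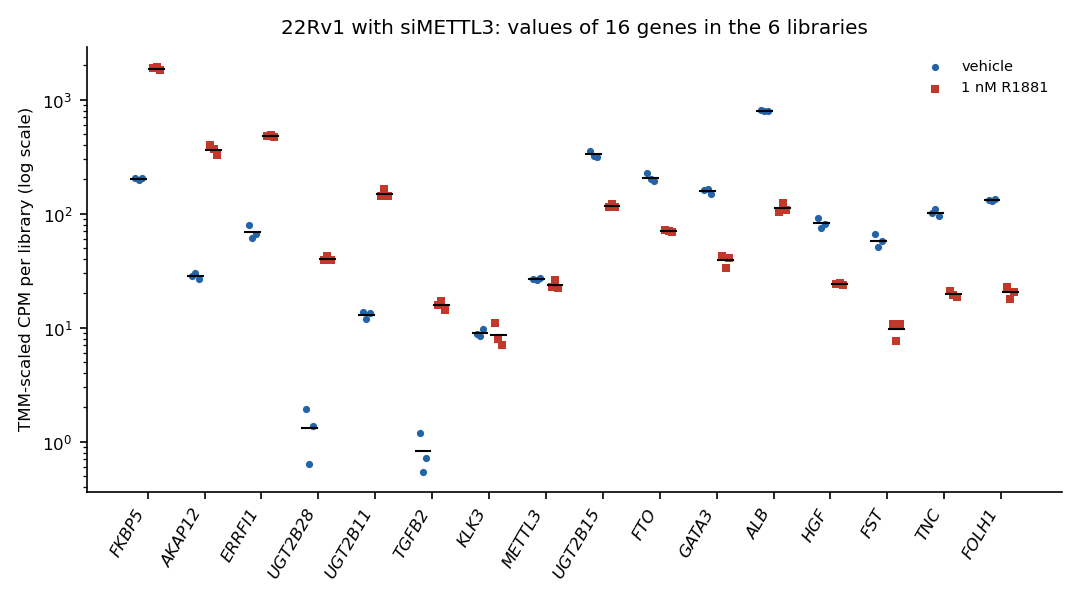
TMM-scaled CPM (y axis, log scale) of 16 genes in each of the 6 siMETTL3 libraries of 22Rv1; blue circles are vehicle, red squares R1881, and black bars the mean of 3 libraries. The groups do not overlap for FKBP5, AKAP12, ERRFI1, UGT2B28, UGT2B11 or TGFB2, which are higher, nor for UGT2B15, FTO, GATA3, ALB, HGF, FST, TNC and FOLH1, which are lower, while the values of KLK3 overlap.

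Genes known to be repressed by androgen mostly fell. Of 22 such genes 19 were tested, 12 were lower and 4 higher, with a median of -1.36. *CCN3*, a matricellular protein also known as NOV, was measured at 8.30, 6.87 and 5.96 CPM with vehicle and 0.711, 0.243 and 0.937 CPM with R1881, 11-fold lower. *CAMK2N1*, an inhibitor of CaMKII, was 2.57-fold lower, the protocadherin gene *PCDH11X* 4.05-fold and the cholinesterase gene *BCHE* 2.75-fold. *SI*, described with the intestinal genes, is also on this list. The 4 higher genes were *UGT2B28*, *UGT2B11*, *THSD7A* and *DLX1*.

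The UDP-glucuronosyltransferases, which join glucuronic acid to steroids and bilirubin for excretion, split in opposite directions. UGT2B15 and UGT2B17 are the enzymes that inactivate dihydrotestosterone and testosterone. *UGT2B15* was the most abundant of them per length with vehicle, at 538 TPM. With R1881 it had 186 TPM and *UGT2B11* had 212 TPM. *UGT2B15* had 353, 324 and 317 CPM with vehicle and was left at 115, 120.4 and 115 CPM with R1881, 2.84-fold lower (log2 -1.51 ± 0.08). *UGT2B17* (log2 -2.86 ± 0.30), *UGT2B10* (-1.98 ± 0.12) and *UGT2B7* (-1.86 ± 0.28) also fell. *UGT2B28* was raised from 1.93, 0.637 and 1.38 CPM to 38.9, 42.7 and 39.1 CPM, and *UGT2B11* from 13.7, 11.8 and 13.4 to 142, 165 and 143 CPM. The changes were 31.4-fold and 11.6-fold, and *UGT2B4* was 3.08-fold higher.

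All 7 genes lie in a cluster on chromosome 4 of GRCh38, from *UGT2B15* (chr4:68537413-68670628) to *UGT2B4* (chr4:69480165-69526014). *UGT1A1*, on chromosome 2, which conjugates bilirubin and oestrogen, was higher from a low level (0.145 to 3.02 CPM), and *UGDH*, which makes the shared substrate UDP-glucuronic acid, was 2.01-fold higher. Over the list, 11 of 19 genes were tested, 5 were higher and 4 lower. Members of this family are close copies, *UGT2B15* overlaps *UGT2B17* and *UGT2B11* spans *UGT2B7* in the annotation, and reads were counted without regard to strand, so how the counts divide among them is uncertain. The pseudogenes *UGT2B24P* and *UGT2B25P* were also among the 15 largest rises (log2 4.23 and 3.85).

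Genes that glucocorticoid is known to induce rose in the majority. Of 17 tested, 9 were higher, at a median of 0.70, and 3 were lower by adjusted p alone. *ERRFI1* (ENSG00000116285, chr1:8004404-8026308), a feedback inhibitor of the EGF receptor, rose from 79.1, 61.8 and 66.2 to 479, 494 and 468 CPM, 6.96-fold. The transcription factor genes *CEBPD* (log2 1.48 ± 0.11), *KLF9* (1.4 ± 0.08) and *KLF15* (0.86 ± 0.08) and the monoamine oxidase gene *MAOA* (1.47 ± 0.08) followed. *FKBP5* and *ZBTB16* belong to this list as well. *TSC22D3*, the leucine zipper gene GILZ, went the other way by adjusted p alone (-0.33 ± 0.07, adjusted p = 0.001). The glucocorticoid receptor gene *NR3C1* had 58.9, 51.7 and 49.7 CPM with vehicle and 60.1, 67.6 and 65.7 CPM with R1881 (0.27 ± 0.08, adjusted p = 0.014).

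Several of the steepest rises were in genes at low levels with vehicle. *TGFB2*, a TGF-beta ligand, had 1.19, 0.546 and 0.718 CPM with vehicle and 15.6, 17.2 and 14.3 CPM with R1881, 19.4-fold higher. *MBOAT2*, a lysophospholipid acyltransferase, reached 130.4, 145 and 122 CPM from 8.02, 7.46 and 6.40 CPM. It was 18.1-fold higher. *NPTX2*, a neuronal pentraxin (log2 4.0 ± 0.17), *TGM2*, a transglutaminase (3.91 ± 0.25), *PCYT1B*, an enzyme of phosphatidylcholine synthesis (3.59 ± 0.25), *ANKRD33* (4.01 ± 0.22) and *STYXL2* (3.52 ± 0.35) were also among the 15 largest. Measured by CPM gained instead, the DEGs without overlap were led by *FKBP5*. Next came the chaperone gene *HSPA8* (662 to 1291 CPM), the adhesion gene *ALCAM* (324 to 936) and *GDF15* (473 to 941). The ferritin heavy chain gene *FTH1* (258 to 695) and *LRRC8A*, a subunit of volume-regulated anion channels (388 to 819), came after these.

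Several genes of the liver and intestine were lower with R1881. Of 34 genes on a list of gastrointestinal and hepatocyte genes 18 were tested, the others having too few counts, and of these 10 were lower and 3 higher, with a median of -1.16. *ALB* (ENSG00000163631, chr4:73397114-73421412), serum albumin, had 814, 789.7 and 800.3 CPM with vehicle and was left at 104, 125 and 107 CPM with R1881. It was 7.15-fold lower (log2 -2.84 ± 0.11, adjusted p = 8.44e-15). The fibrinogen gene *FGB* went from 7.45, 6.37 and 7.89 to 0.646, 0.547 and 0.469 CPM and the intestinal cadherin gene *CDH17* from 31.3, 22.8 and 27.9 to 4.14, 4.74 and 3.81 CPM. The mucin gene *MUC13* was 3.21-fold lower from 287 CPM, the brush border gene *VIL1* 2.52-fold from 174 CPM and the peptidase gene *DPP4* 2.84-fold.

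*SI*, the sucrase-isomaltase of the brush border, had 2.73, 2.96 and 1.99 CPM with vehicle and 0, 0 and 1 counts in the 3 R1881 libraries, at least 13.9-fold lower against a floor of 3 counts per library. On the same floor *SLC13A2*, an intestinal and renal dicarboxylate transporter, was at least 12.6-fold lower, and the class II gene *HLA-DQB2* at least 12.9-fold. The tyrosine kinase gene *BMX* lay at that floor with R1881 (mean 0.184 CPM) and had a log2 fold change of -3.85 ± 0.39. *GC*, the vitamin D binding protein of plasma, went from 48.4, 47.2 and 49.1 to 1.16, 1.58 and 0.820 CPM. *REG4* and *TM4SF20* were also lower, with 3.07, 1.86 and 1.82 CPM and 2.22, 1.96 and 2.32 CPM with vehicle, and had 1, 1 and 4 counts and 4, 1 and 1 counts in the R1881 libraries, too few for a firm fold. The alcohol dehydrogenase gene *ADH1B* had a log2 fold change of -3.78 ± 0.26. Of the factors that govern this programme, *HNF4A* was higher (1.88, 2.14 and 2.26 to 5.69, 2.98 and 4.33 CPM, log2 1.04 ± 0.25) and *HNF4G* was at -0.11 ± 0.09 (adjusted p = 0.39). *AGR2*, a disulfide isomerase of mucous epithelia, was another of the higher members. *SPINK1*, a secreted trypsin inhibitor and the most abundant member per length (1295 TPM), was at -0.11 ± 0.07 (adjusted p = 0.27).

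Several of these promoters hold a sequence close to an inverted repeat of GTTAAT and ATTAAC around 1 base. They are shown because these genes were among those that fell. The motif was chosen after their values were seen. Among other genes that fell, *MUC13* had a promoter window without such a match, and *GC* and *CDH17* had no window. The matches have 2 mismatches, and each is written 5′ to 3′ on the gene's strand with the 13 matched bases in capitals and 8 flanking bases on either side (RefSeq promoter windows, GRCh38.p14). The *ALB* match begins 61 bases before the start site (chr4:73404218-73404246, plus strand), that of *SI* 173 bases before (chr3:165078649-165078677, minus strand) and that of *SLC13A2* 56 bases before (chr17:28473580-28473608, plus strand). The match of *TM4SF20* begins 53 bases before (chr2:227379339-227379367, minus strand), and that of *FGB* 58 or 89 bases before its alternative start sites (chr4:154562914-154562942, plus strand).
ALB: tgagtctaGTTAATAATCTACaattattg
FGB: aaccaaaaATTAAATATTAACtaaggaaa
SI: acagtacaATTACTAATTAACttagattc
SLC13A2: cagactggGTCAATGGTTAACactcaact
TM4SF20: ttattagcGTTAAATTTTAACcagaagat

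Such a match, with at most 2 mismatches on either strand, was in the windows of 441 of 27305 genes, 1.62%, over 250 bases before and 50 bases after each start site. Windows were at hand for 67.8% of the tested genes, 71.6% of the higher and 68.5% of the lower DEGs, too few for a check of the shares between sets, which is void. Among genes with a window, 44 of 1137 lower DEGs held the match, 11 of 534 higher DEGs and 143 of 12114 tested genes. *UGT1A1* and *HNF4A*, which rose, are among the 11. The androgen response element, AGAACA and TGTTCT around 3 bases, was searched in the same way. It was in the windows of 1.74% of all genes, and among genes with a window of 131 of 12114 tested genes, 9 of 534 higher DEGs and 22 of 1137 lower DEGs, *PMEPA1* and *SPRY2* among the higher ones and the noncoding RNA *MIR99AHG* among the lower. The *PMEPA1* match begins 238 bases before the start site (chr20:57710793-57710823, minus strand), and is shown because this gene is on the androgen-induced list; that of *MIR99AHG*, shown for contrast, begins 44 bases before one of its start sites (chr21:16071062-16071092, plus strand).
PMEPA1: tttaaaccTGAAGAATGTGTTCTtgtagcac
MIR99AHG: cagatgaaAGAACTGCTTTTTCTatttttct

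Of 23 transcription factors of the prostate lineage tested, 4 were lower (*GATA3*, *HOXB13*, *SOX2* and *SOX9*) and 1 higher, where 9.29% of all tested genes were lower and 4.18% higher. *GATA3* (ENSG00000107485, chr10:8053604-8075198), a luminal epithelial factor, had 159.9, 166 and 148 CPM with vehicle and 42.7, 33.6 and 41.1 CPM with R1881, 4.04-fold lower. *HOXB13*, a homeobox factor of the prostate, had 88.8, 111 and 105 CPM with vehicle and 48.7, 46.3 and 42.8 CPM with R1881, 2.22-fold lower. *SOX9*, at -0.62 ± 0.09, was past the fold threshold by a small margin and lost the call without vehicle replicate 1 or R1881 replicate 3 (-0.58 and -0.57). *FOXA1*, a pioneer factor that opens chromatin, passed the adjusted p but not the fold threshold (-0.25 ± 0.06). The posterior homeobox gene *HOXA13* was among the 15 largest falls (17.6 to 1.25 CPM).

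Luminal surface and secretory proteins diverged, with 5 of 17 markers higher and 4 lower. *FOLH1* (ENSG00000086205, chr11:49146635-49208670), prostate-specific membrane antigen, fell from 131, 128 and 135 to 22.6, 18 and 20.4 CPM, 6.47-fold, and *ACP3*, prostatic acid phosphatase, fell from 9.89, 11.2 and 9.94 to 1.49, 1.76 and 1.64 CPM. *STEAP1*, a metalloreductase family member at the cell surface, rose from 6.99, 6.46 and 5.47 to 21.8, 24.3 and 24.4 CPM, and *STEAP2* rose 2.23-fold. The groups overlapped for none of the 4 genes.

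**Figure D3:**
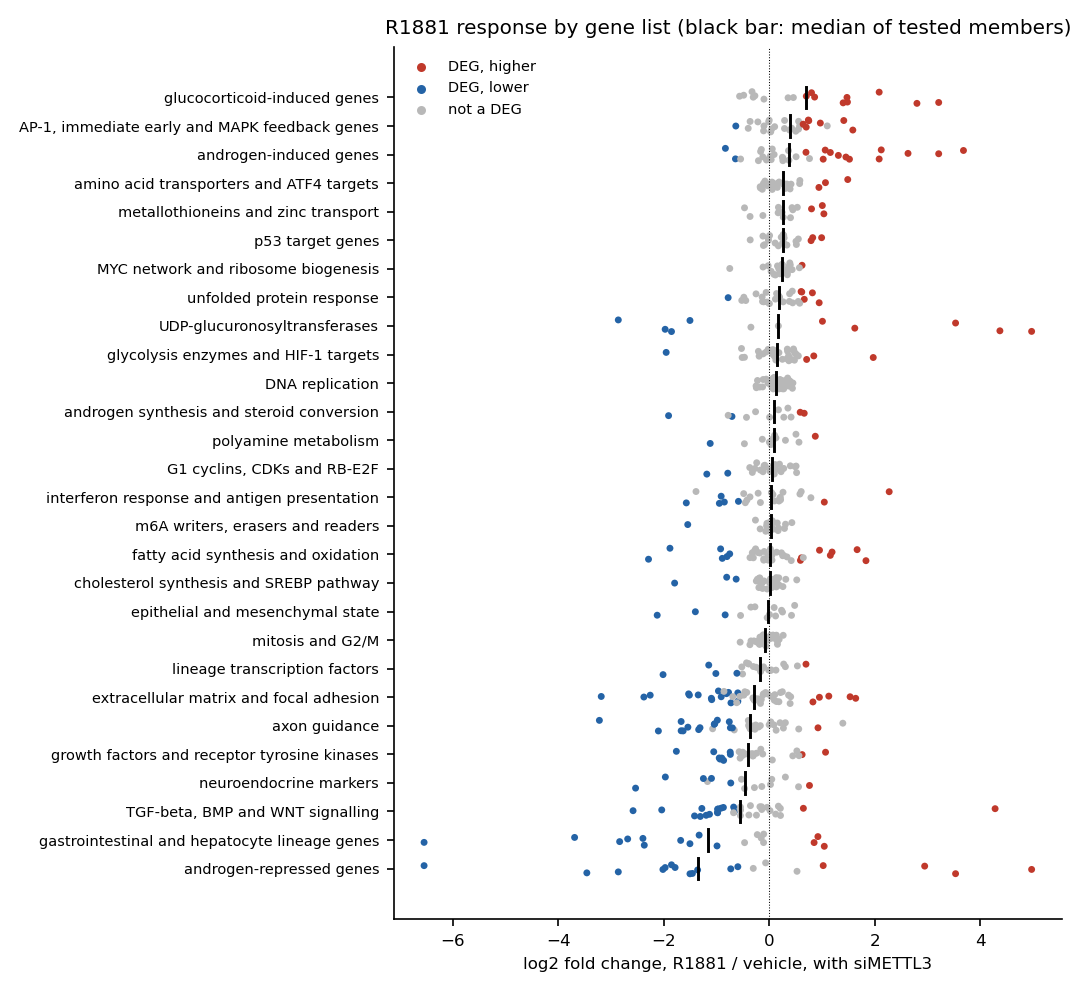
Log2 fold change of R1881 over vehicle with siMETTL3 (x axis) for each tested member of 28 gene lists (y axis, ordered by median); red points are higher DEGs, blue points lower DEGs, grey points genes that are not DEGs, and the black bar is the median of the tested members. The glucocorticoid-induced list has the highest median, 0.70, and the androgen-repressed list the lowest, -1.36.

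Several ligands, antagonists and targets of the TGF-beta, BMP and WNT pathways were lower. Of 33 genes tested, 15 were lower and 2 higher, with a median of -0.55. *FST*, follistatin, which binds activin, had 65.7, 51.2 and 57.2 CPM with vehicle and 10.7, 7.66 and 10.7 CPM with R1881, 6.0-fold lower. *BMP2* (31.2 to 11.7 CPM), *TGFB1* (11.7 to 4.84 CPM) and the inhibin chain *INHBB* (log2 -1.13 ± 0.21) fell among the ligands, and *DKK1* and *BAMBI* among the inhibitors, with log2 fold changes of -2.04 and -1.31. The inhibitory *SMAD6* and *SMAD7*, *SMAD3*, and the BMP targets *ID1*, *ID2* and *ID3* were lower as well, the last from 119 to 75.1 CPM. The 2 higher members were *TGFB2* and the WNT receptor gene *FZD8* (log2 0.65 ± 0.11), the latter losing the call without vehicle replicate 1 (0.52).

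Receptor tyrosine kinases and their ligands showed 8 lower and 2 higher genes of 27 tested. *HGF*, the ligand of MET, had 91.0, 74.7 and 80.7 CPM with vehicle and 24.3, 24.5 and 23.8 CPM with R1881, 3.39-fold lower, and *MET* itself was 1.87-fold lower. *ERBB2*, *ERBB4* and *FGFR4* were lower as well (log2 -0.95 ± 0.09, -1.05 ± 0.15 and -0.87 ± 0.17), and the adaptor gene *IRS2* went from 489 to 293 CPM. *HBEGF* and *IGFBP3*, which binds insulin-like growth factors, were higher (log2 1.07 ± 0.16 and 0.62 ± 0.07), but *IGFBP3* lost the call without R1881 replicate 1 or vehicle replicate 2 (0.57 and 0.56). Of 27 AP-1, immediate early and MAPK feedback genes 7 were higher and 1 lower. *FOS* rose from 17.4, 16.9 and 14.9 to 50.7, 51.9 and 44.8 CPM and *EGR1* from 38.8, 40.3 and 38.6 to 82.9, 74.6 and 72.9 CPM.

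Cues and receptors of axon guidance fell in 14 of 38 tested genes and rose in 1, *UNC5B*. The ephrin system was among them: *EFNB2*, a ligand, fell from 86.9, 81.2 and 76.4 to 23.2, 27.7 and 25.8 CPM and the receptors *EPHA3* and *EPHA7* had log2 fold changes of -1.54 and -2.10. *SLIT1* (log2 -1.04 ± 0.15) fell together with the SLIT receptors *ROBO1* (-1.34 ± 0.11) and *ROBO2* (-3.22 ± 0.29). *SEMA3C*, a semaphorin, was lower too, with 126 CPM with vehicle and 50.4 CPM with R1881. *EPHB3* was the most abundant member per length (663 TPM) and was not called (-0.17 ± 0.07).

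In the extracellular matrix, 15 of 48 tested genes were lower and 5 higher. *TNC*, tenascin C, had 101, 109 and 96.3 CPM with vehicle and 20.9, 19.3 and 18.6 CPM with R1881, 5.20-fold lower. The laminin gene *LAMB1* (2.89-fold lower), *TIMP2*, an inhibitor of metalloproteinases (2.86-fold), and the caveolin genes *CAV1* and *CAV2* (log2 -3.19 ± 0.28 and -2.26 ± 0.43) fell as well. Higher genes included the basement membrane chains *COL4A5* (log2 0.83 ± 0.08), *COL4A6* (1.64 ± 0.21) and *LAMA3* (1.13 ± 0.10), together with *COL6A3* (1.53 ± 0.33). Junction and adhesion genes *CDH2* (log2 -2.13 ± 0.21) and *OCLN* (-0.84 ± 0.10) fell, and *CDH1*, E-cadherin, passed the adjusted p alone (-0.55 ± 0.07, adjusted p = 1.17e-06). Of 15 neuroendocrine genes tested, 5 were lower and 1 higher: *CHGB*, a granin, fell from 89.2, 96.7 and 109 to 25.7, 25.1 and 24.3 CPM and the retrotransposon-derived gene *PEG10* from 1378, 1243 and 1126 to 514, 525 and 535 CPM, while *CALCA* was 1.69-fold higher.

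Genes of lipid metabolism moved in both directions. For fatty acids 7 of 39 tested genes were higher and 6 lower. *ELOVL5*, a fatty acid elongase, rose from 204, 197 and 186 to 617, 669 and 572 CPM and fatty acid synthase, *FASN*, from 677, 860.4 and 695 to 1231, 1094 and 1078 CPM. *FASN* is near the fold threshold, at 0.61 ± 0.09, and lost the call without vehicle replicate 1 or 3 or R1881 replicate 1 (0.55, 0.56 and 0.55). *SCD*, the stearoyl-CoA desaturase, fell from 2372, 2615 and 2220.2 to 1269, 1336 and 1279 CPM, and *FADS2*, *ACSL4* and *ACSL5* were lower (log2 -0.80 ± 0.11, -0.92 ± 0.10 and -2.29 ± 0.47). *PDK4*, which restrains pyruvate dehydrogenase, came next to *SCD* in CPM lost among nuclear DEGs without overlap, from 1403 to 581 CPM. In the cholesterol pathway 3 of 28 genes were lower.

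Glycolysis and HIF-1 targets included 3 higher genes of 34, among them *VEGFA* (272 to 445 CPM), while 15 had a positive change past the adjusted p without regard to fold, such as *LDHA* (0.51 ± 0.09) and *ENO1* (0.47 ± 0.07). *EGLN3*, an oxygen-sensing prolyl hydroxylase, was lower (-1.96 ± 0.22). The unfolded protein response list had 5 of 27 genes higher and 1 lower, with *HSPA5*, the endoplasmic reticulum chaperone BiP, rising from 719, 594 and 660.4 to 1052, 956 and 1116 CPM and *XBP1* at -0.52 ± 0.07 (adjusted p = 3.58e-06). Among 27 amino acid transporter and ATF4 target genes 3 were higher, *SLC43A1* (2.80-fold), *DDIT4* and *DDIT3*. The polyamine genes *ODC1* and *AMD1* passed the adjusted p alone (0.56 ± 0.07 and 0.50 ± 0.09).

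Cell cycle genes changed by small amounts. Among 39 DNA replication genes and 35 mitotic genes edgeR and DESeq2 both called 0 DEGs, and the median log2 fold changes were 0.14 and -0.09. Without the fold threshold edgeR called 16 replication genes higher and 2 lower (17 and 4 at an unadjusted p below 0.05). Over all 17865 tested genes it called 3000 higher and 2917 lower in this way. *CDC6* at 0.45 ± 0.09 and *PCNA* at 0.27 ± 0.07 were among the higher replication genes. In the mitotic list 1 was higher and 4 were lower (2 and 6 at an unadjusted p below 0.05), with *MKI67*, the Ki-67 antigen, at 291, 268 and 231 CPM with vehicle and 181, 180.3 and 177 CPM with R1881 (-0.55 ± 0.08, adjusted p = 8.64e-06). *MKI67* passed the fold threshold with library size alone (-0.61) and without vehicle replicate 3 (-0.64). Ribosome biogenesis and MYC network genes had 17 of 26 higher by adjusted p, with *NPM1*, the nucleolar protein nucleophosmin, at 0.39 ± 0.08. *CCND1*, cyclin D1, was at -0.09 ± 0.06 with 3502 CPM under vehicle, *CDK4* at 0.49 ± 0.07 and *CDKN2B*, a CDK4 inhibitor, was lower (log2 -1.19 ± 0.18). Of 22 p53 targets 3 were higher, *GDF15*, *GADD45A* and *TNFRSF10B*.

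Within the m6A machinery 1 of 21 genes was a DEG. *FTO* (ENSG00000140718, chr16:53703963-54121941), which demethylates m6A, had 228, 199.8 and 194 CPM with vehicle and 71.9, 70.9 and 69.6 CPM with R1881, 2.92-fold lower (log2 -1.55 ± 0.07, adjusted p = 3.72e-13). By adjusted p alone 3 of the genes were higher and 1 more lower. *METTL14*, the partner of METTL3, was at 0.15 ± 0.09 (adjusted p = 0.22). Of 15 genes tested on a list of metallothioneins and zinc transporters 3 were higher, the metallothionein genes *MT1G*, *MT1X* and *MT2A*, the last rising from 43.8, 36.7 and 38.4 to 62.3, 73.0 and 71.3 CPM. The *MT1X* groups overlapped. Steroid conversion genes counted 2 higher and 2 lower of 12, with *HSD17B11*, a steroid dehydrogenase, rising from 99.4 to 157 CPM and the oestrogen sulfotransferase gene *SULT1E1* falling from 3.73 to 0.981 CPM. Of 25 interferon and antigen presentation genes 2 were higher, *NLRC5* and *B2M* (181 to 372 CPM), and 5 lower, *OAS3* (-0.91 ± 0.13) among them.

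Among DEGs without overlap, the largest losses in CPM were in transcripts of the mitochondrial genome, and they lay close to the fold threshold. Of 13 mitochondrially encoded protein genes 6 were lower, 12 were lower by adjusted p, and the median was -0.56. *MT-CO1* had 19225, 12689.6 and 12134 CPM with vehicle and 9382, 10099 and 9879 CPM with R1881 (-0.59 ± 0.11). Replicate 1 held the highest of the vehicle values. Without that library edgeR called 10 of the 13 lower by adjusted p and 0 with the fold threshold, and the median was -0.34. *MT-CO1* and *MT-CYB* also fell short of the fold threshold with the replicate block, DESeq2, RLE size factors or no filter on low counts, at -0.58 to -0.57. Whether RNA quality played a part was not tested.

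The long noncoding RNAs of largest change were *LINC00639* (2.45 to 0.208 CPM) and *MIR99AHG*, host of a microRNA cluster (1.80 to 0.265 CPM), which fell, and 3 without a symbol, which rose. ENSG00000250696 had the largest fold change of these, with 0.284, 0.455 and 0.221 CPM with vehicle and 5.04, 6.26 and 4.39 CPM with R1881. ENSG00000232909 rose by a log2 of 2.76 ± 0.20 and ENSG00000225913 by 2.52 ± 0.23. Reads of a noncoding gene and of a gene on the opposite strand cannot be told apart in these counts. Other large falls in protein-coding genes were those of *B3GALT5*, a galactosyltransferase (log2 -4.37 ± 0.28), *MGAT4C*, a glycosyltransferase (-3.80 ± 0.21), and the matrix gene *EDIL3* (-3.94 ± 0.32). The glypican gene *GPC3* (-3.66 ± 0.43) and *DOCK10* (-3.91 ± 0.38) fell too. The rule that named these genes required that the groups did not overlap.

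Whether the response differed from that of cells with the non-targeting siRNA was tested by the difference between the siMETTL3 and the siSCR response in the same fit. With siSCR, R1881 raised 749 genes (4.19% of those tested) and lowered 1722 (9.64%). In the same direction 1713 genes were DEGs in both arms, 71.2% of the siMETTL3 DEGs and 69.3% of the siSCR DEGs, 506 higher and 1207 lower. A single gene was called in opposite directions, the pseudogene *NTAN1P2*, named here because it was the only one (log2 1.52 with siMETTL3 and -1.61 with siSCR), and its difference did not pass the test (adjusted p = 0.69). It has 0.245 CPM with vehicle and lost the siMETTL3 call without vehicle replicate 2 or 3 or R1881 replicate 3. Of the 693 genes that were DEGs with siMETTL3 only, 646 had the same sign with siSCR, and of the 758 that were DEGs with siSCR only, 712 had the same sign with siMETTL3. Across the 17865 genes Pearson's r of the log2 fold changes was 0.82 and Spearman's rho 0.73; genes are not independent replicates, and each arm has its own 6 libraries.

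The difference itself passed an adjusted p of 0.05 for 3 genes (0.0168% of those tested; 1101 had an unadjusted p below 0.05), and in all 3 R1881 raised the gene less with siMETTL3. *AKAP12* rose from 25.2, 22.3 and 22.4 to 516, 458 and 505 CPM with siSCR, and its log2 fold change was 4.4 against 3.68 with siMETTL3. The difference was -0.72 ± 0.12 (adjusted p = 0.027), but the call ended in 7 of the 12 fits that each lacked a library, in which the difference lay between -0.79 and -0.65. Those without siMETTL3 vehicle replicate 2 or 3 gave adjusted p of 0.11 and 0.051, those without siMETTL3 R1881 replicate 2 or 3 gave 0.13 and 0.16, those without siSCR R1881 replicate 1 or 3 gave 0.18 and 0.14, and that without siSCR vehicle replicate 2 gave 0.20. *AGR2* (chr7:16791811-16833433) had 69.8, 73.5 and 79.3 CPM with siSCR and vehicle and 226, 224 and 223 CPM with siSCR and R1881, a log2 fold change of 1.60. With siMETTL3 it had 97.0, 85.9 and 91.6 CPM with vehicle and 166, 159 and 169 CPM with R1881, a log2 fold change of 0.85 and a difference of -0.75 ± 0.10 (adjusted p = 0.0026). *IGFBP3* (chr7:45912245-45921874) went from 124, 121 and 127 to 346, 323 and 308 CPM with siSCR, and from 141, 127 and 147 to 228, 197 and 213 CPM with siMETTL3. Its difference was -0.77 ± 0.11 (adjusted p = 0.0026), and for *AGR2* and *IGFBP3* the call held in each of these 12 fits. All 3 were DEGs in both arms. With siSCR vehicle replicate 3 left out, 30 genes were called instead of 3, 23 of them with a larger value with siMETTL3. In all 3 genes the R1881 values of the siSCR libraries lay above those of the siMETTL3 libraries without overlap. With vehicle, *AKAP12* and *AGR2* lay higher in the siMETTL3 libraries, also without overlap. For *AKAP12* the log2 fold change of siMETTL3 over siSCR was 0.29 with vehicle and -0.43 with R1881. The median SE of the difference over all genes was 0.17 on the log2 scale, which sets the precision that 3 libraries a group gave.

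**Figure D4:**
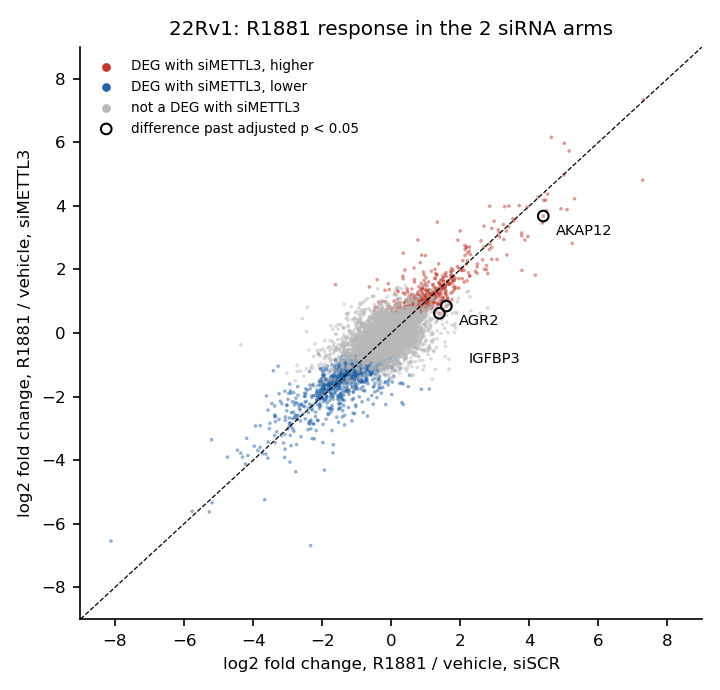
Log2 fold change of R1881 over vehicle in 22Rv1 with siMETTL3 (y axis) against siSCR (x axis), 1 point per tested gene; red and blue points are DEGs with siMETTL3, grey points are not, circles mark the 3 genes whose responses differed at an adjusted p below 0.05, and the dashed line is equality. AKAP12, AGR2 and IGFBP3 lie under the line.

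The leading genes of the siMETTL3 response moved the same way with siSCR. *FTO* had a log2 fold change of -1.44 with siSCR, *ALB* -3.51, *UGT2B28* 5.00, *UGT2B15* -1.67, *GATA3* -2.13, *TGFB2* 4.26, *HGF* -1.95 and *FST* -2.78. By list, axon guidance had 15 lower and 1 higher with siSCR, the TGF-beta, BMP and WNT list 14 and 1, the androgen-induced list 3 and 13, and the glucocorticoid-induced list 1 and 8.

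LNCaP:C4-2 with the same knockdown gave a different response. In a fit of all 24 libraries with 19437 genes, 786 genes were higher in 22Rv1 (4.04%) and 1454 lower (7.48%), and in LNCaP:C4-2 900 were higher (4.63%) and 1111 lower (5.72%). In the same direction 180 higher genes were DEGs in both lines, 22.9% of those of 22Rv1 and 20% of those of LNCaP:C4-2, and 292 lower genes, 20.1% and 26.3%. The difference between the lines was called for 2970 genes, 1642 with a higher value in 22Rv1 (8.45%) and 1328 with a lower one (6.83%). With size factors by the RLE method the same split was 1129 and 1632, with DESeq2 1354 and 1840, and 6 of the 12 fits that each lacked a library also had more genes in the lower set, so the direction of the surplus depends on the scaling and on single libraries.

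Among the 5 genes of smallest p with a lower value in 22Rv1 was the androgen target *SLC45A3*, which had a log2 fold change of 4.99 in LNCaP:C4-2 and 1.48 in 22Rv1, a difference of -3.51 ± 0.17 (adjusted p = 5.98e-14). In the same lines *MYBPC1*, a myosin binding protein, had 5.96 and 0.32. *RHOU*, a small GTPase, and *AFF3* were at 0.06 and -0.05 in 22Rv1 and at 3.83 and 3.39 in LNCaP:C4-2. In the other direction, *NPTX2* (4.02 in 22Rv1 and -0.48 in LNCaP:C4-2), *GCLC*, which makes glutathione (0.96 and -0.94), *MT2A* (0.82 and -1.67) and the retinol dehydrogenase gene *RDH10* (0.71 and -1.82) had positive values in 22Rv1 and negative ones in LNCaP:C4-2. *RAP2B* was at -0.07 in 22Rv1 and -2.35 in LNCaP:C4-2. *FKBP5* had 3.23 and 3.43, a difference of -0.19 ± 0.11 (adjusted p = 0.25). *GATA3* was -1.99 in 22Rv1 and 0.91 in LNCaP:C4-2, a difference of -2.90 ± 0.47 (adjusted p = 7.36e-05). It was nearly silent in LNCaP:C4-2, at 0.274 CPM with vehicle and 0.518 CPM with R1881, and its change there did not pass the test (adjusted p = 0.17). *FTO* was at -1.53 and -0.26 (difference -1.27 ± 0.13, adjusted p = 5.45e-08).

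**Figure D5:**
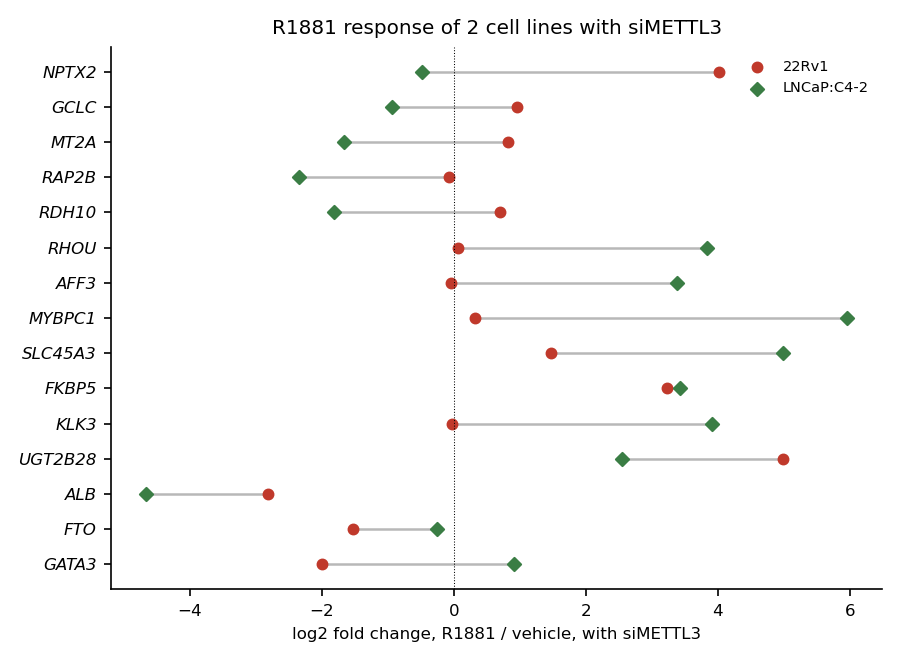
Log2 fold change of R1881 over vehicle with siMETTL3 (x axis) in 22Rv1 (red circles) and LNCaP:C4-2 (green diamonds) from the fit of all 24 libraries, for 9 genes of smallest p for the difference and 6 others. SLC45A3, MYBPC1, RHOU, AFF3 and KLK3 lie far to the right in LNCaP:C4-2, and FKBP5 is at 3.23 in 22Rv1 and 3.43 in LNCaP:C4-2.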

How the data were processed

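The series holds RNA-seq of 24 libraries of LNCaP:C4-2 and 22Rv1. Per the file headers, the authors counted read pairs per gene with featureCounts 1.5.0-p1 on the Ensembl release 83 annotation of GRCh38, with no strand option and without counting multi-mapping reads, so reads of opposite-strand, overlapping and near-identical genes cannot be told apart. Alignment with STAR after trimming with Trim Galore is given in the study's methods and in the submitters' processing notes. The deposited values are raw counts per gene, with no normalization. Gene names were taken from GENCODE 44 by Ensembl ID, coordinates from the deposited tables, and promoter windows from RefSeq (GRCh38.p14).

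The counts of the 12 22Rv1 libraries were fitted together in edgeR by the quasi-likelihood test with TMM scaling, 1 mean per group and no covariate, on the 17865 genes that passed filterByExpr (minimum count 10, minimum total count 15). The response under siMETTL3, that under siSCR and their difference are contrasts of this fit, and the comparison with LNCaP:C4-2 is a contrast of a fit of all 24 libraries, with 19437 genes. P-values were adjusted by Benjamini-Hochberg over all genes tested, and a DEG had an adjusted p below 0.05 and at least 1.5-fold change, the threshold of the study; differences between responses were called by adjusted p alone. Standard errors are the log2 fold change over the square root of F. TPM was computed from the counts and the gene lengths in the deposited tables. Counting error alone sets a floor of 3 counts per library, and with 15716224 to 21306019 counts per library that is 0.141 to 0.191 CPM.

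Genes were named by a rule: METTL3, members of the gene lists, the 15 largest changes in each direction among DEGs that averaged 1 CPM or more and whose groups did not overlap, the 10 largest differences in CPM in each direction, the 5 long noncoding RNAs of largest change, every gene called for the difference between responses, and the 5 genes of smallest p in each direction for the difference between lines. A few genes that the rule would name are not reported here. Fibroblast, endothelial, leukocyte and basal marker lists were checked in the same way. The comparison, the gene lists and the rules were chosen with earlier results of these data known. Alternatives were DESeq2, RLE size factors, library size alone, other count filters and thresholds, the 6 libraries alone, a block for the replicate number and each library left out in turn. The scripts were tested on simulated data. Versions of the tools were R 4.3.3, edgeR 4.0.16, limma 3.58.1, DESeq2 1.42.0 and Python 3.11.15.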

Additional observations from a re-analysis of the deposited data

Results flagged for a closer look

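The response to R1881 in 22Rv1 differed between the siMETTL3 and siSCR arms, by the test of the difference in edgeR, for 3 genes. The differences in log2 fold change, siMETTL3 minus siSCR, were -0.75 for *AGR2*, -0.72 for *AKAP12* and -0.77 for *IGFBP3*. Each was a smaller rise with siMETTL3. *AKAP12* lost the call in most of the fits that each lacked a library, with an edgeR adjusted p of up to 0.20. *AGR2* and *IGFBP3* kept it in each of them.

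For 9 genes the siMETTL3 response differed between the lines by the test of the difference, chosen among those of smallest p. The differences, 22Rv1 minus LNCaP:C4-2 on the log2 scale, were 4.49 for *NPTX2*, 1.89 for *GCLC*, 2.49 for *MT2A*, 2.28 for *RAP2B* and 2.52 for *RDH10*. In the other direction they were -3.78 for *RHOU*, -3.44 for *AFF3*, -5.63 for *MYBPC1* and -3.51 for *SLC45A3*. The test compares 2 cell lines, each grown and treated on its own, so line and culture cannot be told apart. Groups of 3 libraries are too small for a test of single outlying libraries.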

How the results depend on the processing

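The 2406 DEGs of the siMETTL3 response stayed between 1896 and 2485 with DESeq2, RLE size factors, library size alone, other filters on low counts, an adjusted p of 0.01, the 6 libraries alone or the replicate block, and lower genes outnumbered higher ones in each of these. With the 1.5-fold threshold placed inside the test 932 genes were called (289 higher and 643 lower), and 5917 with no fold threshold (3000 and 2917). For siSCR the same settings gave 964 and 5903 genes. Leaving out each library in turn gave 2173 to 2441 DEGs with siMETTL3, 2067 to 2855 with siSCR and 2028 to 2869 genes for the difference between lines. The difference between arms, called for 3 genes, was called for 79 (70 higher and 9 lower) without a filter on low counts and for 2 to 30 when a library was left out, 30 being the fit without siSCR vehicle replicate 3. DESeq2 called 4 genes there. The log2 fold change of *METTL3* was -0.91 to -0.87 with vehicle and -1.26 to -1.14 with R1881 over the fits without a library. *KLK3*, at -0.05, was between -0.26 and 0.080 in these fits, above 0 in 3 of the 6, and *TMPRSS2*, at -0.17, between -0.29 and 5.2e-04, none of them past the test. Each list was set against each of several alternatives. Over all such combinations, the list median moved by less than the spread between libraries in 257 and by more in 49. The cholesterol, fatty acid, interferon, m6A and G1 cyclin lists had medians within 0.05 of 0, which turned negative with library size alone. That scaling moved the median of all genes to -0.06. Without single libraries the interferon median (0.040) was negative in all 6 fits (-0.19 to -0.065) and the cholesterol and fatty acid medians in 3 each (down to -0.048 and -0.042), while those of epithelial and mesenchymal state and of luminal markers were positive in 3 each (up to 0.077 and 0.080) and that of leukocyte markers (-0.45) in 1 (0.53). Removing mitochondrially encoded genes before normalisation, an alternative added after seeing the data, gave 2399 DEGs. With at most 1 mismatch the androgen response element was in the windows of 0.190% of all genes and the repeat of GTTAAT and ATTAAC in 0.179%. The causes of these changes were not tested.

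Replicate numbers did not pair the libraries: over 18 pairs of libraries with the same number the deviations from the group means correlated with a mean r of -0.01, and over 36 pairs with different numbers with a mean of 0.0053. A replicate block gave 2351 DEGs (739 higher and 1612 lower), 2418 with siSCR, 3 genes for the difference between arms and 2730 for the difference between lines.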

Other observations

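R1881 moved a number of genes in opposite directions in the lines under METTL3 knockdown, described here because the report gives only the overlap of genes that moved alike. In the fit of all 24 libraries 39 of the 786 higher DEGs of 22Rv1 were lower DEGs in LNCaP:C4-2 (4.96%), against 5.72% of all genes tested, and 62 of its 1454 lower DEGs were higher there (4.26%), against 4.63%. These shares are near those over all genes. The difference itself was called for all 39 and for at least 58 of the 62. Genes that were not tested in the 22Rv1 fit were left out of this count. Such genes had already passed both thresholds in opposite directions in the same fit. Their calls for the difference were therefore nearly fixed beforehand and add no evidence. The genes named next were chosen after their values were seen. *SCNN1G* and *SCNN1B*, chains of the epithelial sodium channel, had mean levels of 17.1 and 11.6 CPM with vehicle in LNCaP:C4-2 and fell there to 3.29 and 2.26 CPM with R1881. In 22Rv1 they were nearly silent with vehicle, at 0.0303 and 0.147 CPM, and had 0.658 and 0.914 CPM with R1881. *MYOF*, the membrane repair protein myoferlin, went from 1.4 to 15.8 CPM in LNCaP:C4-2 and from 3.47 to 1.03 CPM in 22Rv1, a difference in log2 fold change of -5.23 ± 0.39 (edgeR adjusted p = 1.60e-10). *SERPINF2*, the plasmin inhibitor, went from 0.154 to 2.45 CPM in LNCaP:C4-2 and from 4.88 to 1.22 CPM in 22Rv1. *ADRA2A*, an adrenergic receptor, was at 169 CPM with vehicle and 319 CPM with R1881 in 22Rv1, against 0.213 CPM and 0 CPM in LNCaP:C4-2. In LNCaP:C4-2, the levels of *ADRA2A* and that of *SERPINF2* with vehicle lie near or under the floor of 3 counts per library. The same holds for *SCNN1G* and *SCNN1B* with vehicle in 22Rv1. The sizes of these changes are therefore uncertain.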
